A study of Mus musculus with 3 samples.

Results

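The genes described here encode 8 carriers and pumps that move organic anions and cations across the kidney proximal tubule: Slc22a2, Slc22a6, Slc22a8, Slc22a12, Slc22a30, Slc47a1, Slco1a1 and Abcc2. They were chosen by name, as a list of transporters for drugs, urate, steroid conjugates and other organic ions. Earlier results of these data were known when the list was made. All 8 of the 22535 genes in the tables had unique molecular identifiers (UMIs, 1 for each captured RNA molecule), and together they took 57805 of the 246245516 UMIs in the cells kept. Each was followed through proximal tubule epithelial cells (PTECs), injured tubule cells, parietal epithelial cells (PECs, which line Bowman's capsule), podocytes and the other cells of the kidney cortex.

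Cells came from the kidney cortex of WT1CreERT2; Rosa26-tdTfl/+ mice, in which tamoxifen turns on the red reporter tdT in cells that express Wt1, and were captured in the microwells of BD Rhapsody. There were 3 libraries, 1 for each condition, and all came from mice of this genotype. Sham was a mixture of tdT+ and tdT- cells of sham-operated mice. IRI24h-TDN was such a mixture taken 24 h after severe ischemia-reperfusion injury (IRI) of both kidneys, and IRI24h-TD was the sorted tdT+ fraction alone at the same time. Kidneys were pooled within a library, the Wt1 driver labels mostly podocytes and PECs, and the IRI libraries differ in their sort. The age of the mice was not given in the sources used here, and no condition had a replicate library, so no difference between conditions could be tested. Intervals below are exact 95% Poisson or binomial intervals on the counts and cover counting error only.

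The basolateral carriers of the proximal tubule take organic ions up from blood, and the apical carriers and pumps pass them on to the urine or take them back. Slc22a6 (OAT1) and Slc22a8 (OAT3) exchange organic anions against dicarboxylates at the basolateral side, and Slc22a2 (OCT2) takes up organic cations there. At the brush border Slc47a1 (MATE1) extrudes cations against protons, Abcc2 (MRP2) pumps out conjugated anions with ATP, Slc22a12 (URAT1) takes back urate, and Slco1a1 (OATP1A1) carries bile salts and steroid conjugates. Slc22a30 belongs to a rodent branch of the anion-type SLC22 carriers.

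On the mouse assembly GRCm38, 5 of the 8 genes lie on chromosome 19. Slc22a30 (chr19:8335371-8405111, minus strand), Slc22a8 (chr19:8591254-8611835, plus strand) and Slc22a6 (chr19:8618039-8628299, plus strand) are neighbours, while Slc22a12 (chr19:6535845-6543032, minus strand) and Abcc2 (chr19:43782192-43840740, plus strand) lie apart from them. The others are Slc22a2 (chr17:12584132-12628488, plus strand), Slc47a1 (chr11:61343401-61378345, minus strand) and Slco1a1 (chr6:141907282-141946962, minus strand). Slc22a12 overlaps Nrxn2 on the other strand, which had 307 UMIs against 4707 for Slc22a12. All 8 are annotated as protein-coding.

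HNF4 is a well-known activator of proximal tubule genes, and its gene Hnf4a is among the regulators described with the other listed genes. Its motif, GGGGTCA and then AAGGTCA, was sought on both strands in the 250 bases before the RefSeq transcription start of the 7 genes with a promoter entry. The closest matches in Abcc2 and Slco1a1 are shown, because these were the closest among the 7 genes and set the gene that was higher in IRI24h-TDN beside one of those that were lower. The capitals mark the match in a window of 30 bases, written 5′ to 3′ on the strand of the gene (sequence from the RefSeq promoter table, GRCm38). The Slco1a1 match reads on the other strand.
Abcc2, chr19:43782243-43782272: aagttgtcAGGATGAAAGGTCAggagactt
Slco1a1, chr6:141947075-141947104: aatgagatTGACCTATGATCTAgcatgtag

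The Abcc2 match differed from the motif at 3 of its positions and the Slco1a1 match at 4. Those in Slc22a2, Slc22a6, Slc22a8 and Slc22a30 differed at 5 and that in Slc22a12 at 6. Among 32851 mouse promoters of the same length, 2.93% had a match with at most 3 differences and 18.8% with at most 4, so that a match with 4 differences is common. In the GENCODE annotation the Abcc2 window lies in an exon at its 5′ UTR, and the Slco1a1 window lies 112 bases before the annotated start of the gene, in no annotated gene. These matches are letters in a window and no binding was measured.

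The tables held 30008 barcodes, of which 26760 had at least 200 genes and at most 50% mitochondrial UMIs, with medians of 7746 (Sham), 9151 (IRI24h-TDN) and 9529 (IRI24h-TD) UMIs per cell. Between 82 and 96 barcode sequences were shared by each pair of libraries. Cells were clustered without the 8 genes and named from marker lists that held none of them, and a class is written below with "-like". The clustering used other genes of these same cells, so differences between classes are a description. PTEC-like cells numbered 898, 97 and 46, in the order Sham, IRI24h-TDN, IRI24h-TD that is kept below wherever 3 values stand together, and comprised S3-like cells (763, 79 and 40), the late straight segment, and S1/S2-like cells (135, 18 and 6), the early convoluted segments. The 40 S3-like cells of IRI24h-TD had a median of only 1252.5 UMIs. Independently of class, 34 genes, 27 of them ribosomal, were at least 4-fold lower in IRI24h-TDN than in Sham in every one of 10 classes, and none of the 8 transporters was among them. Levels are given in CPM, the UMIs of a gene per 1000000 UMIs of all cells of a class and library, which are not scaled by gene length and are compared only within a gene.

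In Sham, PTEC-like cells held between 74.4% (Slc47a1) and 91.3% (Slco1a1) of the UMIs of every one of the 8 genes. S3-like Sham cells were the richest class, with 65.3 UMIs of the 8 genes per 10000 UMIs, against 24.5 in S1/S2-like cells and 0.325 in podocyte-like cells. The median S3-like Sham cell had UMIs of 7 of the 8 genes, 188 of 763 cells had all 8, and no cell lacked every one. In IRI24h-TDN the S3-like level was 20.02 per 10000 UMIs and the median cell had 5 of the genes. With each cell thinned to 2400 UMIs the medians were 5 genes in Sham and 3 in IRI24h-TDN.

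Within the proximal tubule of Sham, the uptake carriers divided by segment. Slc22a2, the cation carrier, was at 946 CPM in S3-like and 195 CPM in S1/S2-like cells, a 4.84-fold difference (4.18 to 5.65). Slc22a6 was at 2216 against 526 CPM, 4.21-fold higher in S3-like cells. Slc22a8, which shares many substrates with Slc22a6, went the other way, at 270 CPM in S3-like and 508 CPM in S1/S2-like cells, 1.88-fold lower in S3-like cells (1.70 to 2.09). The pair of neighbouring anion carriers thus had opposite orders over the segments.

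Slco1a1 was the most sharply divided, at 1167 CPM in S3-like cells against 6.47 CPM, or 6 UMIs in 5 of 135 cells, in S1/S2-like cells, a 180-fold difference (82.8 to 491). Slc22a30 was at 537 against 200 CPM, 2.69-fold higher in S3-like cells, and Slc22a12 at 560 against 273 CPM, 2.05-fold higher. The apical exporters differed least between segments. Slc47a1 was at 529 CPM in S3-like and 503 CPM in S1/S2-like cells, a ratio of 1.052 (0.954 to 1.16), and Abcc2 at 310 against 242 CPM, a ratio of 1.28 (1.12 to 1.48). A difference is called below when it was at least 2-fold and rested on at least 10 UMIs in both groups together. By that rule 5 of the 8 genes were higher in S3-like cells and none was lower, where 7.38% of 11331 genes were called higher and 14% lower. These segment values depended on which barcodes were kept. When barcodes above 20% mitochondrial UMIs were left out and the rest clustered anew, with 256 S3-like and 232 S1/S2-like Sham cells, the count was 1. Slco1a1 was then 2.19-fold higher in S3-like cells, Slc22a2 1.67-fold, Slc22a6 1.26-fold and Slc22a12 1.07-fold, while Slc22a30 turned to a log2 ratio of -0.18 and Slc22a8 was 3.22-fold lower. When barcodes found in 2 libraries were left out, the count was 2 and the same differences were 5.33-fold for Slco1a1, 2.35-fold for Slc22a2 and 1.56-fold for Slc22a6.

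The 5 S3-like subclusters of Sham differed less than the segments for Slc22a2, Slc22a6, Slc22a12 and Slco1a1, and more for the other genes. The ratio of the highest to the lowest subcluster was 1.59 for Slc22a6 and Slc22a12, 1.65 for Slc22a2, 1.69 for Slco1a1, 2.02 for Slc47a1, 2.39 for Slc22a8, 2.64 for Abcc2 and 3.77 for Slc22a30. Slc22a30 ranged from 199 to 751 CPM among them. Its counts have a further limit, since Slc22a28, a close relative, shares 2 of the 705 distinct 50-base words in the last 400 bases of its transcripts and was counted at nearly the same level, with 3692 UMIs against 3682 for Slc22a30 in PTEC-like Sham cells. Both were seen in 608 of 898 cells and their counts were equal in 189. How the counting treated reads that match both is not given in the sources used here, so the split between them is uncertain. None of the other 7 genes shared such a word with another gene.

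**Figure D1:**
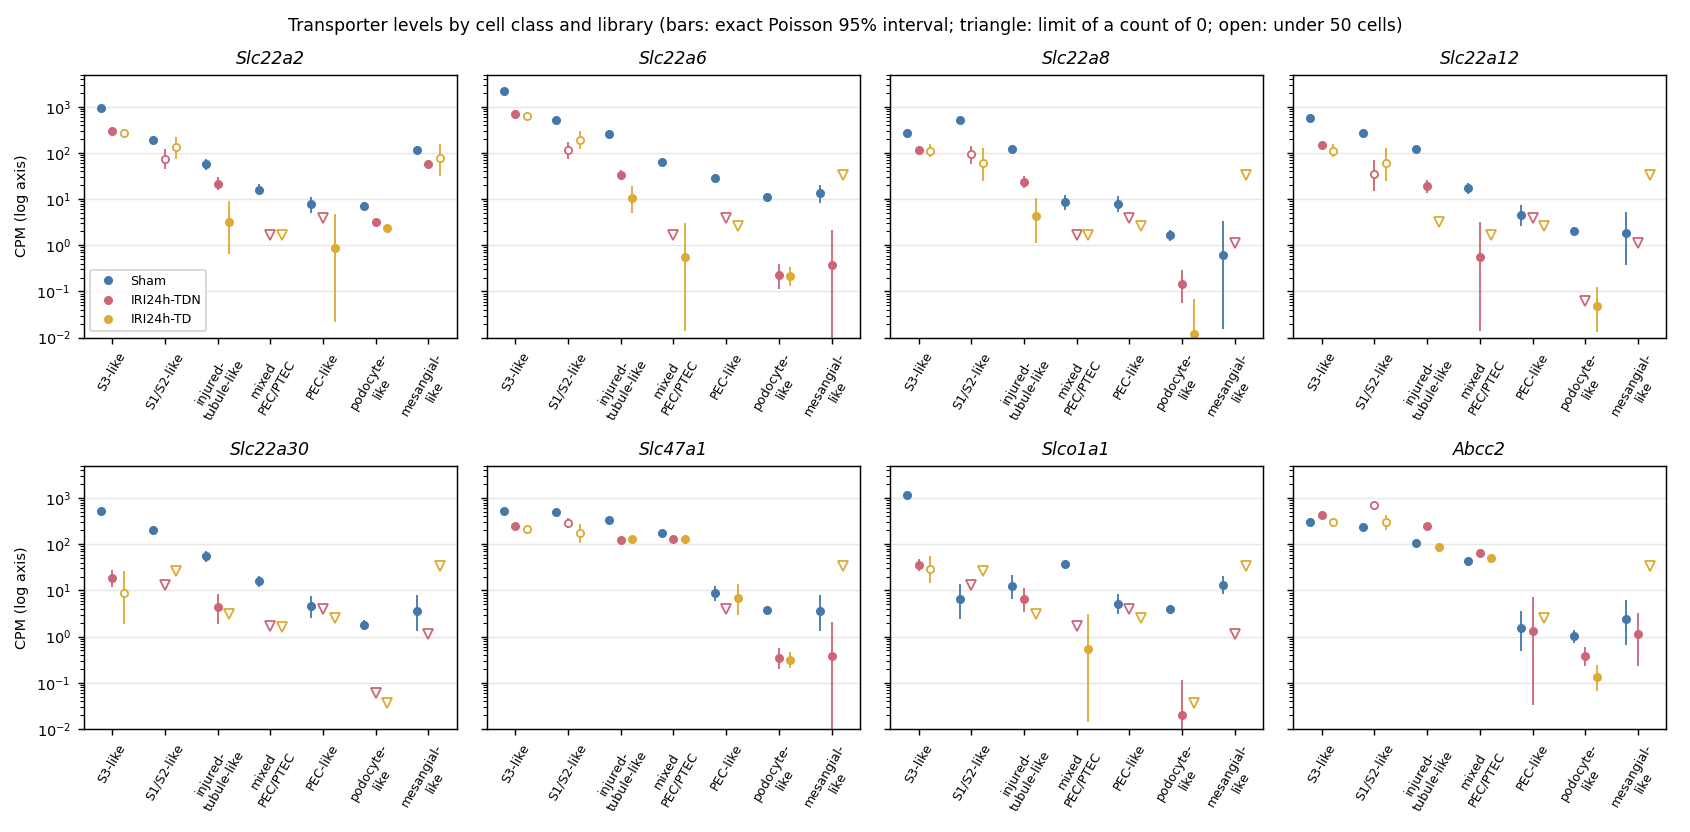
Level of each of the 8 genes in CPM (log axis) by cell class (S3-like, S1/S2-like, injured-tubule-like, mixed PEC/PTEC, PEC-like, podocyte-like and mesangial-like) in Sham, IRI24h-TDN and IRI24h-TD, with exact 95% Poisson bars, triangles for the limit that a count of 0 allows and open symbols for groups under 50 cells. Slc22a30 and Slco1a1 drop furthest between the Sham and IRI24h-TDN S3-like cells, Abcc2 does not drop, and Slc47a1 and Abcc2 alone keep a level in the mixed class of all libraries.

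At 24 h after IRI, 7 of the 8 genes were at least 2-fold lower in PTEC-like cells of IRI24h-TDN than of Sham. The conjugate exporter Abcc2 was 1.59-fold higher, which is under the 2-fold rule, so none of the 8 was called higher. Of all 11700 genes compared, 15.3% were called lower and 15.1% higher, and the median log2 ratio was 0.03 over all genes and -1.72 over the 8.

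The basolateral uptake carriers were lower by similar factors. Slc22a6 had 2006 (1974 to 2038), 608 (569 to 649) and 525 (460 to 596) CPM in the 3 libraries, and was 3.30-fold lower in IRI24h-TDN than in Sham (3.08 to 3.53). Slc22a2 had 852 (832 to 874), 261 (235 to 288) and 238 (195 to 288) CPM, 3.27-fold lower (2.95 to 3.63). Slc22a8 had 299 (287 to 312), 114 (97.6 to 133) and 100.1 (73.0 to 134) CPM, 2.62-fold lower (2.24 to 3.08). For all 3 genes the interval of IRI24h-TDN lay far below that of Sham. IRI24h-TD holds 46 such cells, and its values stand beside the others without a comparison.

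Slco1a1 and Slc22a30 were lower by far more than the rest. Slco1a1 had 1022 (999 to 1046), 30.2 (22.04 to 40.4) and 22.2 (10.7 to 40.9) CPM, 33.8-fold lower in IRI24h-TDN (25.3 to 46.4). Slc22a30 had 495 (479 to 511), 16.1 (10.3 to 24.0) and 6.67 (1.38 to 19.5) CPM, 30.7-fold lower (20.6 to 48.0). In these IRI24h-TDN cells 18 of 97 had an Slco1a1 UMI and 13 of 97 an Slc22a30 UMI, against 638 and 679 of 898 in Sham. With thinning to 2400 UMIs the shares were 8.42% against 64.1% for Slco1a1 and 3.16% against 53.6% for Slc22a30. Slco1a1 is known to depend on androgen in the mouse kidney. The Y-linked gene Ddx3y was at 181 to 229 CPM and Xist at 4 to 6 UMIs in each of the 3 libraries.

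At the apical side, the urate carrier Slc22a12 had 524 (508 to 541), 133 (115 to 153) and 100.1 (73.0 to 134) CPM, 3.94-fold lower in IRI24h-TDN (3.42 to 4.57). Slc47a1 had 526 (509 to 542), 257 (232 to 284) and 202 (163 to 249) CPM, 2.04-fold lower (1.84 to 2.28), and so lay at the edge of the 2-fold rule. Abcc2 was the exception, with 302 (290 to 315), 481 (446 to 517) and 302 (254 to 358) CPM, 1.59-fold higher in IRI24h-TDN (1.46 to 1.73). In S3-like cells alone the same 7 genes were called lower, against 15.5% of genes, and the Abcc2 ratio was 1.41 (1.29 to 1.55). The S3 markers summed to 8423 CPM in S3-like cells of Sham and 1124 CPM in those of IRI24h-TDN. The S1/S2 markers summed to 1494 and 1922.5 CPM in the same cells, so the S3-like name does not hold the segment fixed. In the 18 S1/S2-like cells of IRI24h-TDN Abcc2 stood at 715 CPM (609 to 834) against 242 (211 to 275) in the 135 of Sham.

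The count of genes called lower was 5 without correction between libraries, a setting that left 8 PTEC-like cells in IRI24h-TDN, and 6 or 7 in the other alternatives. The Slc47a1 ratio was negative on the log2 scale and the Abcc2 ratio positive in 14 of 14 alternatives.

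The markers that name PTEC-like cells were lower too. Of the 13, 11 were at least 2-fold lower in IRI24h-TDN, with a median of 2.89-fold, from 1.12-fold for Keg1 to 7.29-fold for Kap, and their summed level was 17308 against 72030 CPM. Slc22a2, Slc22a6, Slc22a8, Slc22a12 and Slc47a1 lie within that range, whereas Slc22a30 and Slco1a1 lie beyond it and Abcc2 on the other side of 1. The 13 hold no gene of the S3 marker list. In PTEC-like cells the S3 markers summed to 7480 CPM in Sham and 1012 CPM in IRI24h-TDN. The S3 marker Slc7a13 was at 1590 and 6.12 CPM in the largest S3-like subcluster, with 34 cells in IRI24h-TDN. The PTEC-like cells of IRI24h-TDN also had the injury marker Havcr1 (Kim1) at 2276 CPM, against 6.18 CPM in Sham. Of these 97 cells, 80 had a Havcr1 UMI and 17 had none. Abcc2 was at 481 CPM in the former and 480 CPM in the latter, while Slc22a6 was at 661 and 145 CPM, but 72 of the 80 and 7 of the 17 were S3-like, so the Havcr1 split and the segment cannot be told apart. The median mitochondrial share was 17.2%, 19.5% and 18.5%. At a limit of 20%, with 488 PTEC-like cells in Sham and 54 in IRI24h-TDN, Slc22a6 was 3.79-fold lower in IRI24h-TDN and Slco1a1 35.1-fold. Slc47a1 was then 2.21-fold lower and Abcc2 1.62-fold higher. Beyond this limit, the part of the mitochondrial share in these results was not tested.

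**Figure D2:**
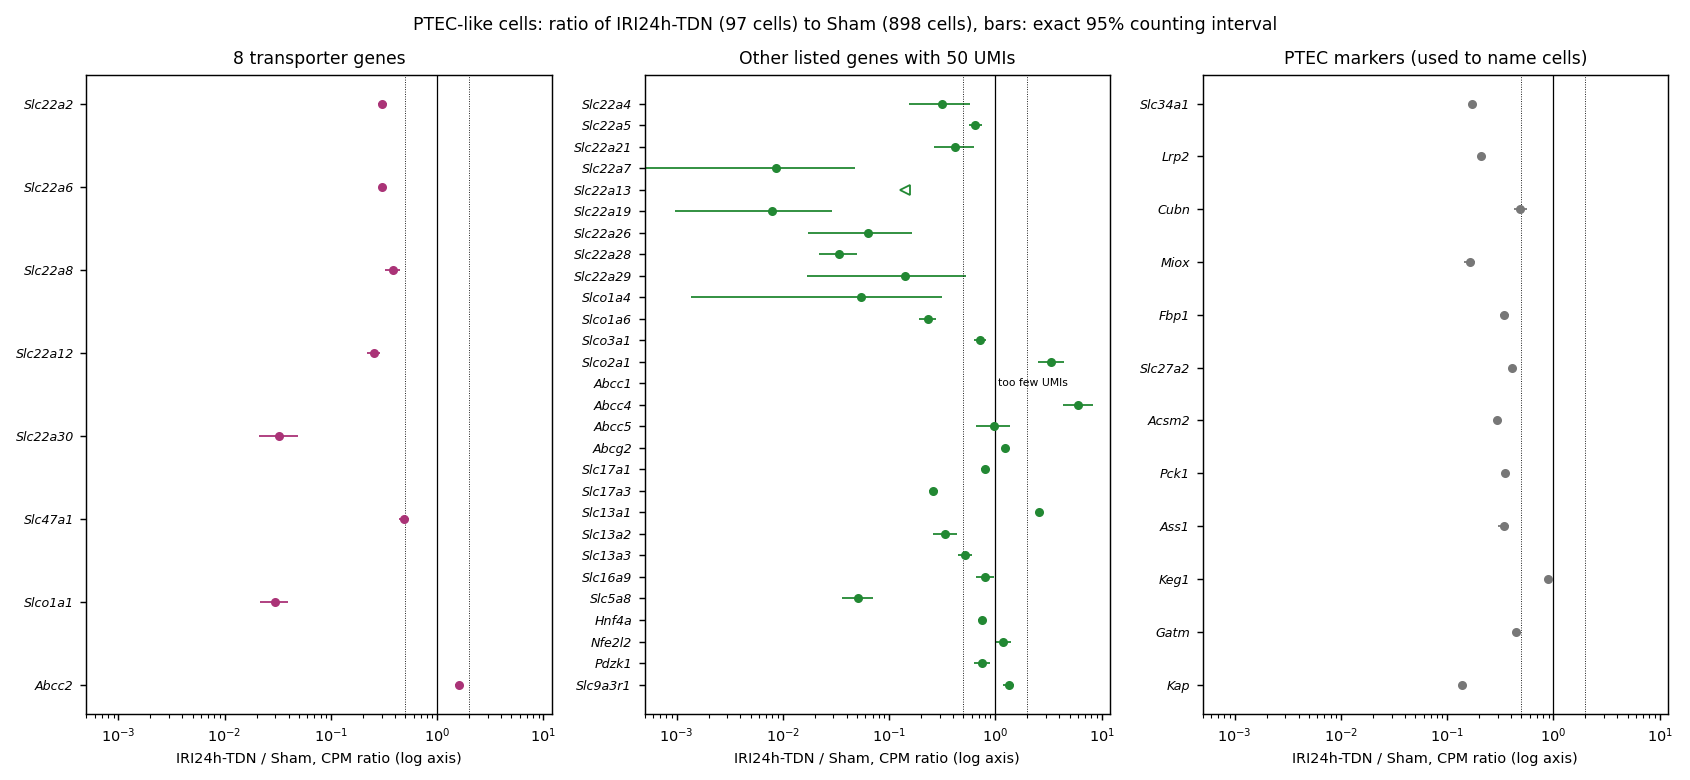
Ratio of CPM in PTEC-like cells of IRI24h-TDN to Sham (log axis) for the 8 genes, 28 other listed genes with at least 50 UMIs and 12 PTEC markers, with exact 95% intervals; dotted lines mark 0.5 and 2 and a left-pointing triangle marks a bound. Slc22a30 and Slco1a1 lie at 0.0326 and 0.0296, at the far left with Slc22a28, Slc22a19 and Slc22a7, while Abcc2 lies at 1.59 on the side of Abcc4 and Slco2a1.

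The other genes of the same transport systems were compared from lists of relatives, partners and regulators. Of 49 listed genes 47 were in the tables and 37 had enough UMIs in PTEC-like cells, of which 15 were called lower, 6 higher and 16 neither, with a median log2 ratio of -0.77. Among the organic anion carriers 8 of 10 were lower and 1 was higher. Slc22a19 had 168 CPM in Sham and 1.34 CPM in IRI24h-TDN, Slc22a28 had 496 and 16.8 CPM, Slc22a26 had 42.3 and 2.69 CPM, and Slc22a7 (OAT2) had 78.0 and 0.671 CPM, the last from 1 UMI. Slc22a13 had no UMI in IRI24h-TDN and was at least 7.14-fold lower. The OATP relatives Slco1a6 and Slco1a4 had 389 against 89.98 CPM and 12.2 against 0.671 CPM. The one carrier of this list that was higher, the prostaglandin carrier Slco2a1, had 16.7 CPM in Sham and 55.7 in IRI24h-TDN, and it was at 606 CPM in podocyte-like cells of IRI24h-TDN. The summed markers of podocytes were at 756 CPM in PTEC-like cells of Sham and 330 CPM in those of IRI24h-TDN, and their part in that difference was not tested.

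Among the organic cation and carnitine carriers, Slc22a4 (0.316 of the Sham level) and Slc22a21 (0.416) were called lower, and Slc22a5 (0.650) was lower by less than 2-fold. Of the exporters 3 of 7 were called higher and 1, Abcc6, lower. Abcc4 (MRP4), an apical pump for anions and cyclic nucleotides, had 10.1 CPM in Sham and 60.4 in IRI24h-TDN, a ratio of 5.995 (4.36 to 8.26), Abcb1a and Abcb1b had ratios of 3.33 and 5.90 from 24 to 30 UMIs each, and Abcg2 (BCRP), at 597 and 733 CPM, had a ratio of 1.23 (1.15 to 1.31). Abcc2 had the direction of these exporters and not that of the uptake carriers.

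Of the urate, phosphate and carboxylate carriers, 3 of 8 were lower, the monocarboxylate carrier Slc5a8 most of all (487 against 24.8 CPM), with Slc17a3 at 1139 against 298 CPM and Slc13a2 at a ratio of 0.338. Slc13a1, a sulfate carrier, was higher (412 against 1059 CPM, ratio 2.57), as was Slc2a9 from 37 UMIs in all. Among the regulators, Hnf4a was at 603 and 453 CPM, a ratio of 0.750 (0.691 to 0.813), and Nfe2l2 (NRF2), which is known to activate exporter genes such as Abcc2 and Abcc4, had a ratio of 1.18 (0.999 to 1.39). The scaffold genes Pdzk1 and Slc9a3r1, which hold carriers at the brush border, had ratios of 0.757 and 1.34.

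Injured-tubule-like cells numbered 127, 79 and 54. Havcr1 was at 2832 CPM in those of IRI24h-TDN and 784 CPM in those of IRI24h-TD, while in Sham the same subclusters had 1 Havcr1 UMI, so only the IRI cells are called injured here. Havcr1 does not set them apart from PTEC-like cells, which had 2276 and 2375 CPM in the IRI libraries. The injury markers summed to 8642 CPM in injured-tubule-like cells of IRI24h-TDN. They summed to 10063 CPM in PTEC-like, 9896 CPM in PEC-like and 11995 CPM in mixed PEC/PTEC cells of that library. The name thus does not mean a higher summed injury level than in those classes. The class joins 2 subclusters, and the smaller, with 25 of the 79 and 33 of the 54 cells, had Top2a, Mki67 and Rrm2, which mark dividing cells, as its leading genes and scored higher for PEC markers (0.427) than for PTEC markers (0.0949), on a scale where 1 is the highest level among all clusters. In IRI24h-TDN 7 of the 8 genes were at least 2-fold lower in injured-tubule-like than in PTEC-like cells, where 7.11% of 10761 genes were, and the 8th, Abcc2, was 1.91-fold lower (1.70 to 2.15). The naming rule asks for an injury score above the PTEC score, so low proximal markers were part of how the class was found. The PTEC markers summed to 4772 CPM in these injured-tubule-like cells, against 17308 CPM in the PTEC-like cells.

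Slc22a6 and Slc22a2 were the furthest apart. Slc22a6 was at 33.7 CPM in injured-tubule-like cells of IRI24h-TDN, 18.0-fold below the PTEC-like cells of that library (13.9 to 23.7), and Slc22a2 at 21.8 CPM, 11.97-fold below (8.63 to 17.0). Slc22a12 was at 19.0 CPM and 6.98-fold lower, Slc22a8 at 23.9 CPM and 4.77-fold lower, Slco1a1 at 6.53 CPM and 4.63-fold lower, and Slc22a30 at 4.35 CPM from 8 UMIs and 3.70-fold lower (1.61 to 9.54). Slc47a1 was at 126 CPM (2.05-fold lower, 1.73 to 2.42) and Abcc2 at 252 CPM. A UMI of Slc47a1 was found in 62 of 79 cells and of Abcc2 in 58 of 79, but of Slc22a2 in 14, Slc22a6 in 19 and Slco1a1 in 5.

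Slc47a1 was alike in both subclusters of this class and Abcc2 was not. In IRI24h-TDN Slc47a1 was at 127 CPM (98.4 to 161) in the 25 cells of the cycling subcluster and 125 CPM (107 to 146) in the other 54 cells. Abcc2 was at 28.4 CPM (15.9 to 46.9) in the former and 342 CPM (311 to 375) in the latter. The other 6 genes had 0 to 3 UMIs each in the cycling subcluster. Without it the count of genes called lower was 7, with Slc22a6 13.5-fold lower, Slc22a2 8.98-fold and Abcc2 1.41-fold (1.25 to 1.59).

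Apart from Slc47a1 and Slc22a30, these values moved with the clustering far beyond their counting intervals. At resolution 2, with 29 injured-tubule-like cells in IRI24h-TDN, Slc22a6 was 148-fold lower than in PTEC-like cells, Slc22a2 65.03-fold and Abcc2 22.8-fold. Slc22a12 and Slc22a8 had no UMI in those injured-tubule-like cells and were at least 23.02-fold and 20.5-fold lower. Without correction between libraries, which left 8 PTEC-like cells, the values were 2.15-fold for Slc22a6, 2.51-fold for Slc22a2 and 3.61-fold for Abcc2. Slc22a30 was 9.29-fold lower at resolution 2 and 2.11-fold without correction, inside its counting interval. Slc47a1 stayed between 1.84-fold and 2.81-fold lower over 14 alternatives, the upper end above its counting interval.

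In IRI24h-TD the injured-tubule-like cells had Slc47a1 at 130 CPM (108 to 155) and Abcc2 at 87.4 CPM (69.6 to 108), Slc22a6 at 10.5, Slc22a8 at 4.21 and Slc22a2 at 3.16 CPM, and no UMI of Slc22a12, Slc22a30 or Slco1a1, each of which allows up to 3.16 CPM. The Slc47a1 intervals of the IRI libraries overlapped, while that of Abcc2 lay higher in IRI24h-TDN. The cycling subcluster held more of the IRI24h-TD cells, and Abcc2 there was at 44.1 CPM in it and 196 CPM in the other 21 cells. Against PTEC-like cells of Sham, the injured-tubule-like cells of IRI24h-TDN were lower by 157-fold for Slco1a1, 114-fold for Slc22a30, 59.5-fold for Slc22a6, 39.2-fold for Slc22a2, 27.5-fold for Slc22a12, 12.5-fold for Slc22a8, 4.18-fold for Slc47a1 and 1.20-fold for Abcc2 (1.08 to 1.33), where 15.3% of 12147 genes were called lower. Markers of other cells moved with this class, since the summed PEC markers were at 2444 CPM in injured-tubule-like and 661 CPM in PTEC-like cells of IRI24h-TDN, none of the 9 at 0 in the former and 1 at 0 in the latter. Their part in the result was not tested. The count of 7 ran from 5 with cells thinned to 2400 UMIs to 8 with the stricter mitochondrial limit.

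Of the other listed genes, 15 of 29 were called lower in injured-tubule-like than in PTEC-like cells of IRI24h-TDN and 4 higher. The median log2 ratio was -1.36 over the 29 and 0.31 over all genes compared, of which 7.11% were called lower. The share of all genes called higher is not given here. All but Slc2a9 of the 8 urate, phosphate and carboxylate carriers were lower, from 2.68-fold for Slc16a9 to 11.7-fold for Slc13a1. Hnf4a was at 113 against 453 CPM, and Pdzk1 was 3.01-fold lower. Of the exporters Abcb1b was 2.24-fold higher, Abcc1 at least 5.67-fold higher and Abcc4 1.83-fold higher (1.42 to 2.37), while Abcg2 had a ratio of 0.501 (0.454 to 0.552).

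A class of cells carried markers of both PECs and PTECs and is called mixed PEC/PTEC here, with 358, 136 and 157 cells. Of these 651 cells 1.38% were among the 6% of all cells with the highest doublet scores. How much of a level is free RNA, released by broken cells and captured with other cells, was judged from podocyte-like cells, which should lack proximal carriers. In podocyte-like cells of Sham the 8 genes stood at a median of 0.472% of the PTEC-like level, and the 13 PTEC markers at 0.473%. In IRI24h-TDN the medians were 0.074% and 0.062%, and in IRI24h-TD 0.043% and 0.057%.

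Slc47a1 and Abcc2 were far above this background in mixed PEC/PTEC cells of every library. Slc47a1 was at 179 (165 to 194), 129 (113 to 146) and 131 (115 to 149) CPM, or 34.1%, 50.04% and 64.8% of the PTEC-like level of the library, and 48.4, 370 and 417 times the podocyte-like level. Abcc2 was at 44.2 (37.5 to 51.8), 64.9 (53.6 to 77.9) and 50.5 (40.7 to 61.9) CPM, or 14.7%, 13.5% and 16.7% of the PTEC-like level. Slc47a1 was seen in 203 of 358, 63 of 136 and 82 of 157 cells and Abcc2 in 69, 39 and 38 of them, against 118 of 4225, 15 of 5065 and 25 of 8191 podocyte-like cells for Slc47a1. The median cell had 8623, 12671 and 11456 UMIs in the mixed class and 8325, 9383 and 9780 UMIs in the podocyte-like class.

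The other 6 genes were almost absent from the counts of this class after IRI. Each had 0 or 1 UMI in the mixed cells of each IRI library, where 0 UMIs allow up to 1.68 CPM in IRI24h-TDN and 1.65 CPM in IRI24h-TD. In Sham they had 8.56 to 63.1 CPM, which is 1.87% to 3.57% of the PTEC-like level, and their UMIs came from few cells: the 128 Slco1a1 UMIs lay in 20 of 358 cells, the 55 Slc22a30 UMIs in 15, with 30.9% of them in 1 cell, and 3 mixed Sham cells had all 8 genes. From Sham to IRI24h-TDN, Slc22a6 was at least 37.6-fold lower in mixed cells, Slco1a1 at least 21.8-fold, Slc22a2 at least 9.52-fold, Slc22a30 at least 9.35-fold and Slc22a8 at least 5.10-fold, each bound set by a floor of 3 UMIs per class. Slc47a1 was 1.39-fold lower (1.19 to 1.62) and Abcc2 1.47-fold higher (1.14 to 1.88). The subclusters of this class differed in direction. In the subcluster of 232 Sham and 57 IRI24h-TDN cells, Slc47a1 was at 173 and 189 CPM and Abcc2 at 41.6 and 93.8 CPM. In that of 126 and 79 cells, Slc47a1 was at 204 and 72.6 CPM and Abcc2 at 55.7 and 37.9 CPM. Over the whole class, from Sham to IRI24h-TDN, 6 of the 8 genes were called lower, against 13.6% of 12284 genes. The podocyte-like level of the same 6 genes, used above to judge free RNA, was lower in IRI24h-TDN too. Slc22a6 was at 11.2 CPM in podocyte-like cells of Sham and 0.225 CPM in those of IRI24h-TDN. Slco1a1 was at 3.997 and 0.0204 CPM there, Slc22a8 at 1.65 and 0.143 CPM, and Slc22a2 at 7.14 and 3.21 CPM. The part of free RNA in the differences between mixed cells was not tested.

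By the rule of at least 2-fold above podocyte-like cells in every library, 2 of the 8 genes passed, where 18.5% of 13025 genes did, and only 4 of the 8 had enough UMIs in each library to be tried. Of the 47 other listed genes, 17 did so as well, among them Abcc4, Abcg2, Slc13a1, Slco3a1, Hnf4a and Pdzk1. The PTEC marker Kap stood at 3.22%, 0.088% and 0.032% of the PTEC-like level in mixed cells. In mixed cells Abcc4 was at 84.8, 94.6 and 116 CPM, above its PTEC-like level in each library.

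**Figure D3:**
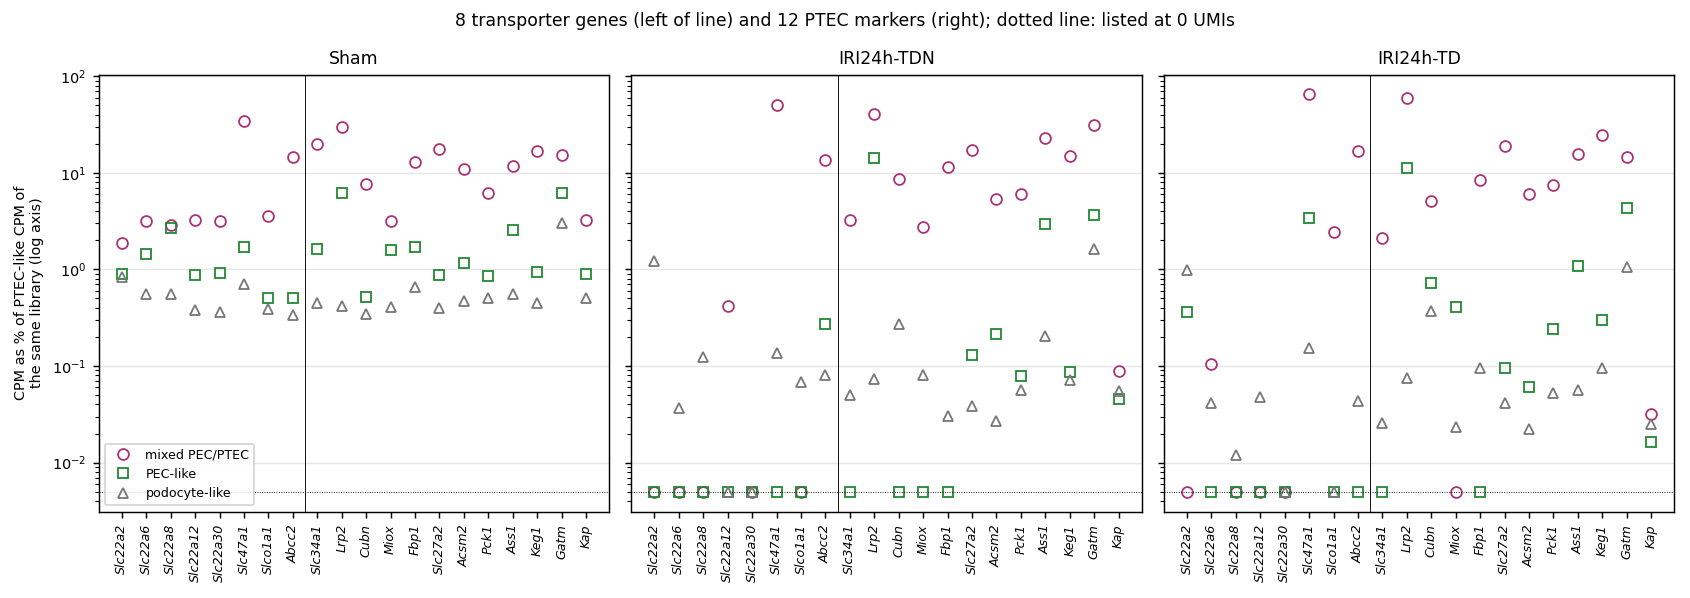
Level of each of the 8 genes and of 12 PTEC markers in mixed PEC/PTEC, PEC-like and podocyte-like cells as a percentage of the PTEC-like level of the same library (log axis), in 1 panel for each library, with a dotted line for genes at 0 UMIs. Slc47a1 stands at 34.1%, 50.04% and 64.8% in mixed cells, while in podocyte-like cells Slc22a2 is the highest of the 8 in each library.

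PEC-like cells, 427, 92 and 143 in number, had little or none of the 8 genes. In Sham they had 1.53 to 28.8 CPM, with a median of 2.34 times the podocyte-like level, and 5 of 8 genes were called higher than in podocyte-like cells where 27.1% of genes were. The PTEC markers stood at 2.43 times in the same cells, so the transporters were close to the PTEC markers there, and free RNA and low expression cannot be told apart. In IRI24h-TDN the 92 PEC-like cells had 1 UMI of the 8 genes in all, of Abcc2, and the limit of a count of 0 was 3.91 CPM. In IRI24h-TD the 143 cells had 8 UMIs of Slc47a1, or 6.85 CPM (2.96 to 13.5), which is 21.8 times the podocyte-like level (8.53 to 49.6), in 3 cells of which 1 held 75% of them, and 1 UMI of Slc22a2. No gene of the 8 was called higher in PEC-like cells of every library, where 15.5% of 12852 genes were, and only 4 of the 8 had enough UMIs to be tried.

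Outside the tubule, Slc22a2 had a level of its own in mesangial-like cells. Mesangial-like cells had it at 113 (97.7 to 131) CPM in Sham (285 cells), 59.1 (50.2 to 69.1) in IRI24h-TDN (457 cells) and 77.7 (31.2 to 160.1) in IRI24h-TD (14 cells), which is 15.9 times the podocyte-like level in Sham and 18.4 times in IRI24h-TDN, a difference of 2-fold or more that 21.2% of all genes had in Sham and 21.1% in IRI24h-TDN. It was seen in 82, 98 and 4 of these cells. Slc22a6, which had more UMIs than Slc22a2 in PTEC-like cells, was at 13.3 CPM in mesangial-like cells of Sham, 1.19 times its podocyte-like level (0.73 to 1.82), and at 1 UMI in IRI24h-TDN. Slco1a1 had 22 UMIs in mesangial-like Sham cells, 68.2% of them in 1 cell, and none in IRI24h-TDN. The cluster was led by Rgs5, Acta2, Ren1 and Myh11, genes of pericytes, smooth muscle and renin cells, and the label covers such mural cells. Of these cells, the 188 Slc22a2 UMIs of Sham lay all in the 257 cells with a Myh11 UMI and none in the 28 without, and the level was close with and without a Ren1 UMI (114 and 113 CPM). With and without a UMI of Itga8, another marker of this class, Slc22a2 was at 124 and 97.9 CPM in Sham. In IRI24h-TDN it was at 76.1 CPM (63.03 to 91.05) with an Itga8 UMI and 34.4 CPM (24.2 to 47.4) without.

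Between Sham and IRI24h-TDN the mesangial-like level was 1.92-fold lower (1.54 to 2.39), under the 2-fold rule, by which 7.55% of 11333 genes were lower there. Another organic cation carrier, Slc22a3 (OCT3), was found in the same cells, with 607 UMIs or 366 CPM in Sham and 88.6 CPM in IRI24h-TDN, against 6 UMIs in all podocyte-like cells of Sham. Slc47a2 (MATE2) was at 6.63 and 4.17 CPM there.

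Podocyte-like cells had Slc22a2 at 7.14 (6.30 to 8.06), 3.21 (2.73 to 3.75) and 2.33 (2.02 to 2.69) CPM in Sham, IRI24h-TDN and IRI24h-TD, which is 0.838%, 1.23% and 0.980% of the PTEC-like level. For Slc22a6 the same share was 0.037% in IRI24h-TDN and 0.041% in IRI24h-TD, far under that of Slc22a2. In 2519 endothelial-like, distal tubule and collecting duct-like, loop-like and monocytic-like cells of IRI24h-TDN as 1 pool, Slc22a2 was at 0.629 CPM (0.359 to 1.02), below the podocyte-like interval. Slc22a6 had 30 UMIs or 1.18 CPM in those cells, but 23 of them lay in 1 monocytic-like cell. Without that cell it was at 0.275 CPM (0.111 to 0.567), close to the 0.225 CPM of podocyte-like cells. In Sham the pool of the same classes had Slc22a2 at 7.59 CPM (5.71 to 9.87), and this interval overlapped the podocyte-like one. The pool of IRI24h-TD had 1 Slc22a2 UMI in 93 cells, so the podocyte-like level lay above the pool in IRI24h-TDN only. Of the podocyte-like cells with any Slc22a2 UMI, 33, 24 and 27 had 2 UMIs and 9, 3 and 5 had more. Mesangial-like RNA was at a lower share in them, with Ren1 at 0.079%, 0.045% and 0.0023% and Myh11 at 0.055%, 0.034% and 0.0037% of the mesangial-like level, against 6.30%, 5.43% and 3.003% for Slc22a2. Because podocyte-like cells are the largest class, they held 19.9% of all Slc22a2 UMIs in IRI24h-TDN and 60.1% in IRI24h-TD, where PTEC-like cells held 33.3%.

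**Figure D4:**
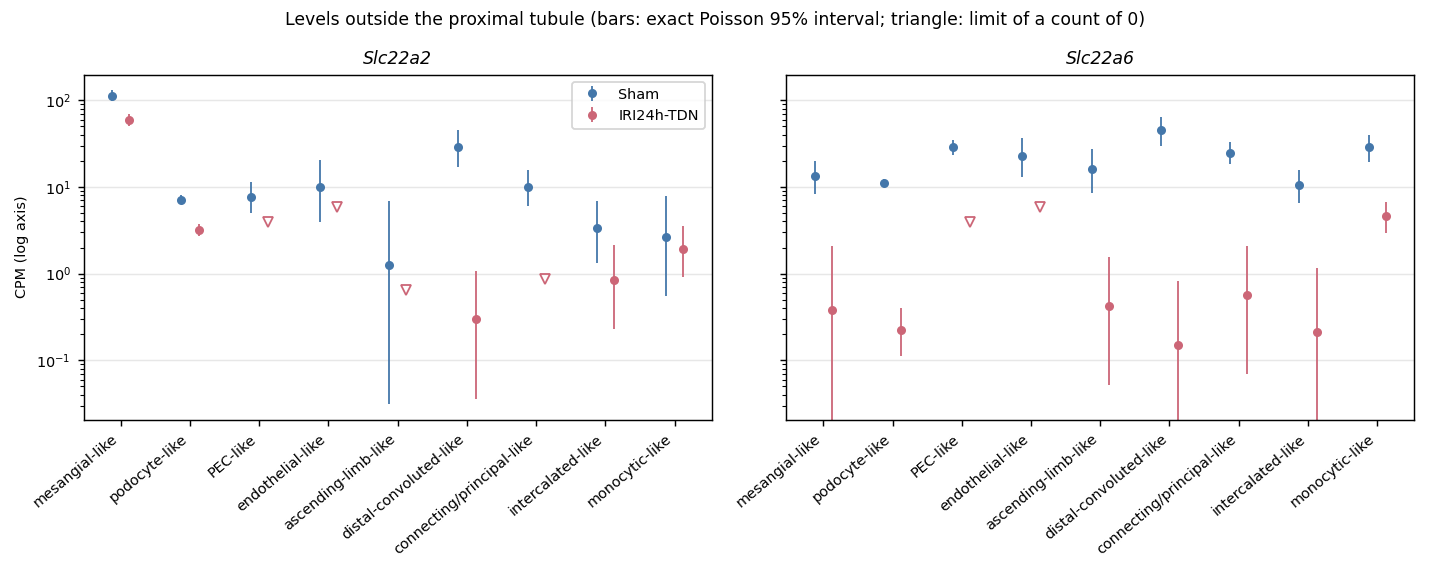
Slc22a2 and Slc22a6 in CPM (log axis) in 9 classes outside the proximal tubule in Sham and IRI24h-TDN, with exact 95% Poisson bars. Slc22a2 stands out in mesangial-like cells at 113 and 59.1 CPM, and in podocyte-like cells of IRI24h-TDN it is at 3.21 CPM where Slc22a6 is at 0.225 CPM.

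The pattern of each gene was compared with that of 14493 other genes over 34 groups of class and library with at least 50 cells each, by Pearson's r of log2(CPM + 1). These groups share libraries and free RNA, so r is a description. Slc22a6 was most like Ugt3a2 (r = 0.978), Kap and Miox, and Slco1a1 most like Slc7a13 (0.976), an S3 marker, Slc5a8 and Mep1b. Slc22a30 was most like Slc22a28 (0.982), Slc22a12 most like Hgd (0.959), and Slc22a8 most like Miox (0.956). The exporters had other neighbours, Slc47a1 being most like Tmem174 (0.981) and Kcnj15, and Abcc2 most like Mfsd4b5 (0.973), Acnat2 and Amn. Slc22a2 had the weakest neighbours of the 8, with Fbxo40 at 0.938, Bhmt2 at 0.878 and Dmgdh at 0.850. Its r was 0.838 with Slc22a6 and 0.620 with Slc47a1.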

How the data were processed

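Libraries were prepared with BD Rhapsody. Each library has a deposited table of raw counts (UMIs by gene and barcode), which the authors had not normalized. The submitters' processing notes name CASAVA 1.8, UMI-tools, Seurat and the mm10 build without roles, and the strand setting of the counting is not given in the sources used here. The study's methods state that multiplets were left out. The 8 genes, the marker lists and the tests were chosen with earlier results of these data known, and parts of the code and lists came from an earlier analysis of them, so they are no independent support.

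Barcodes with fewer than 200 genes (1547, 444 and 118 in Sham, IRI24h-TDN and IRI24h-TD) or above 50% mitochondrial UMIs (468, 594 and 77) were left out. The tables held 69980443, 92355554 and 93470709 UMIs. Counts were log-normalized, 2000 variable genes (without the listed transport genes) and 30 principal components were corrected between libraries by a Harmony-type step, and Leiden clustering (15 neighbours, resolution 1) gave 27 clusters, of which the PEC-like and PTEC-like ones were clustered again into 14 subclusters. A class took a name when at least 3 of its markers were detected in 25% of its cells, and a cluster took a mixed name when a second list scored at least 0.4 of the first. Subclusters were called injured-tubule-like when the injury list scored above the PEC and PTEC lists and 25% of cells had Havcr1, and otherwise mixed PEC/PTEC when at least 3 markers of both lists were detected. Cells were not removed as doublets. Leaving out the 6% with the highest scores was an alternative.

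UMIs were summed per class and library, and no test was possible with 1 library per condition. CPM intervals are exact Poisson, ratio and share intervals exact binomial (Clopper-Pearson), at 95%, and cover counting error only. A count of 0 was given a floor of 3 UMIs per class sum, and a ratio against it is a bound. The CPM limits given for a count of 0 use this floor and lie below the upper end of the exact interval. Groups under 50 cells entered no call at the main settings, and their values, and levels given as a share of theirs, are descriptions. Cells were thinned to 2400 UMIs for shares of cells. Other genes named were those of the listed transport genes with at least 50 UMIs in PTEC-like or PEC-like cells of a library and, for likeness, the 3 genes with the highest r among those with at least 100 UMIs. Abcc6, Abcb1a, Abcb1b, Slc2a9, Slc22a3 and Slc47a2, which fall under that minimum, were named after their values were seen. Some genes of these lists are not reported here. The code was checked on simulated counts. Python 3.11.15, numpy 2.4.6, scipy 1.17.1, pandas 2.3.3, leidenalg 0.10.2, R 4.3.3 and edgeR 4.0.16 (for TMM factors) were used.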

Additional observations from a re-analysis of the deposited data

Results flagged for a closer look

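Abcc2 moved in opposite directions in podocyte-like and PTEC-like cells between Sham and IRI24h-TDN. Its ratio was 0.3809 in podocyte-like cells (1.02 against 0.388 CPM) and 1.593 in PTEC-like cells (302 against 481 CPM), and the difference was not tested. The PTEC markers in podocyte-like cells, a measure of free proximal RNA, summed to 386 CPM in Sham and 18.2 CPM in IRI24h-TDN.

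The barcodes left out for few genes or many mitochondrial UMIs held UMIs of the 8 genes above the podocyte-like level of their library. In Sham the 8 genes summed to 445.4 CPM in 2015 such barcodes, against 32.5 CPM in podocyte-like cells. In IRI24h-TDN the values were 53.38 CPM in 1038 barcodes and 4.334 CPM, and in IRI24h-TD 89.44 CPM in 195 barcodes and 3.058 CPM. What these barcodes held was not tested.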

How the results depend on the processing

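No paired analysis was possible because each condition had 1 library. The 7 genes called lower in PTEC-like cells of IRI24h-TDN were 5 to 7 over 14 alternatives, and every one of the 8 log2 ratios kept its sign in all 14. The count in injured-tubule-like cells was 5 to 8 over 14 alternatives, 1 of them chosen after seeing the data (7 without the cycling subcluster), that in mixed PEC/PTEC cells 2 to 3 over 12 and that in PEC-like cells 0 over 12. The count of 5 genes higher in S3-like than in S1/S2-like Sham cells moved by more than 1.5 times: 3 with a minimum of 500 genes, with resolution 0.5 and with a larger set of variable genes, 2 with barcodes found in 2 libraries left out and 1 with at most 20% mitochondrial UMIs, where the log2 ratio of Slc22a30 was -0.181. The cause was not tested. Slc47a1 kept its sign in 8 of 13 alternatives there and Abcc2 in 12. Of 328 values of single genes under the alternatives 207 lay inside the counting interval of the reported value and 121 outside. The sign changed in 7, of which 1 had been at least 2-fold. Resolution 0.5 left no PEC-like class and resolution 2 no mixed class, so no value could be given. TMM factors shifted all log2 ratios by -0.207 in PTEC-like cells of IRI24h-TDN against Sham, by 0.397 between segments and by -0.283 in injured-tubule-like against PTEC-like cells. Depth limits the IRI24h-TD proximal values, with 46 PTEC-like cells, and all classes with 0 UMIs.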
